A study of Mus musculus with 24 samples.

Results

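The 30 min response of control macrophages to LPS was described by setting 3 libraries of LPS-stimulated cells against 3 libraries of unstimulated cells from the same genotype. These were 6 of the 24 libraries in the normalised expression table. The table lists 24273 genes, of which 13901 passed a filter on low expression (a linear value of at least 5 in at least 3 libraries) and were tested. Of these, 1007 genes were called, meaning that the adjusted p of the moderated test in limma was below 0.05. Of the called genes, 708 rose (5.09% of the genes tested) and 299 fell (2.15%).

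The study examined how the kinase TPL-2 shapes transcription in macrophages stimulated through TLR4. These libraries were its step to find what FOS contributes to expression induced by LPS. Bone marrow cells of C57BL/6 mice were differentiated into macrophages (BMDMs) in L-cell conditioned medium, held overnight in low serum, and then left unstimulated or given LPS at 100 ng/ml. The control cells, named LysM, carry LysM-Cre, a Cre recombinase expressed from the lysozyme locus of myeloid cells. The series text gives their genotype as LysM-Cre alone, whereas the study's own text gives Fos fl/+ LysM-Cre. The controls may therefore carry 1 floxed Fos allele, which Cre could delete, and this was not tested. The comparison cells, labelled FosKO, carry LysM-Cre and Fos fl/fl. Both genotypes therefore carry Cre, and each was sampled at 0, 0.5, 1 and 2 h of LPS with 3 libraries per group. The methods call the libraries biological replicates without naming mice or cultures, and the p-values measure the spread between these libraries.

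LPS is sensed by TLR4 together with its co-receptors CD14 and MD-2. The adaptors MyD88 and TRIF relay the signal to the IκB kinases, which release NF-κB from its inhibitors and, through the kinase TPL-2 (encoded by Map3k8), switch on the ERK MAP kinases. ERK phosphorylates the ternary complex factors that sit with SRF on CArG boxes, and the genes under such boxes, among them the Egr and Fos families, belong to the immediate early genes. Immediate early and other primary response genes are transcribed without new protein synthesis. Secondary response genes, such as most interferon-stimulated genes, follow once the first factors or interferon have been made.

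The labelled cell type was checked by its markers. The macrophage markers Adgre1, Csf1r and Cd68 stood between 14.78 and 15.17 on the log2 scale in all 6 libraries. Of 10 macrophage markers only Cd14 was called. These are bulk samples, in which a change in the share of cells and a change in RNA per cell cannot be told apart. All 8 T, B and NK cell markers in the table stayed below the filter, as did the neutrophil markers Ly6g and Elane. Of the neutrophil markers, S100a8, S100a9 and Ngp passed it, with 4.24 to 4.93 at 0 h and 4.42 to 5.22 at 0.5 h, and no dendritic or stromal marker exceeded 3.85 at 0 h. The summed linear level of 8 neutrophil markers was 74.0 to 93.7 at 0 h and 82.9 to 101 at 0.5 h, against 198000 to 202000 and 206000 to 209000 for the macrophage markers. Libraries of a group correlated across genes at 0.9979 to 0.9982 at 0 h and at 0.9953 to 0.998 at 0.5 h. The median SD of a gene was 0.057 at 0 h and 0.058 at 0.5 h. The LysM 0.5 h replicate 3 stood apart in the 18S ribosomal RNA gene Rn18s-rs5, with 16.76 against 18.94 to 19.12 in the other 5 libraries. Without it, 580 genes were called higher and 223 lower, and 563 of the 708 rises and 202 of the 299 falls were still called. Sequencing depth cannot be read from values that are already normalised and on a log scale. Values of low genes can be shrunken on such a scale, and a difference there is then smaller than the change in RNA.

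The sequences before the start sites of a few rising genes show elements that SRF, NF-κB and CREB or ATF proteins are known to bind. They are RefSeq sequences on GRCm38.p6, read 5′ to 3′ on the strand of the gene, with each match to the named element in capitals and up to 20 bases on either side. Matches were sought on both strands in the 250 bases before the start site. The CArG box was found before Egr2 (encoding a zinc finger transcription factor), Dusp5 (a nuclear ERK phosphatase) and Zfp36 (which encodes the mRNA decay factor tristetraprolin):
Egr2, chr10:67537474-67537523, plus strand: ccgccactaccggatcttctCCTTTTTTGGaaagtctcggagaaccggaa
Dusp5, chr19:53529043-53529102, plus strand: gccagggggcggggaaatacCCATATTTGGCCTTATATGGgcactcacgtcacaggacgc
Zfp36, chr7:28379257-28379306, minus strand: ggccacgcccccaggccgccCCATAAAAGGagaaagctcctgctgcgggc
The Dusp5 stretch holds 2 boxes end to end. The kB site, the element that NF-κB binds, was found before the NF-κB inhibitor genes Nfkbia and Tnfaip3, the neutrophil chemokine genes Cxcl1 and Cxcl2 and the early response gene Ier3:
Nfkbia, chr12:55492648-55492696, minus strand: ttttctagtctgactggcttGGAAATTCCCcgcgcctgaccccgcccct
Tnfaip3, chr10:19015411-19015555, minus strand: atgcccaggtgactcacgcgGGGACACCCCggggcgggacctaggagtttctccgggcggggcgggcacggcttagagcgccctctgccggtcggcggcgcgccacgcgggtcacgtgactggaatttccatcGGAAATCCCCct
Cxcl1, chr5:90891154-90891204, plus strand: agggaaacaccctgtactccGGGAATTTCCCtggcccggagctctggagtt
Cxcl2, chr5:90903782-90903832, plus strand: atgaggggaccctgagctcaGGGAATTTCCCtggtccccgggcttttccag
Ier3, chr17:35821601-35821650, plus strand: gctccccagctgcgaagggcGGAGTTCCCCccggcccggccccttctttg
The capitals of Cxcl1 and Cxcl2 are 2 overlapping matches on opposite strands. The cAMP response element TGACGTCA, which CREB and ATF proteins bind, was found before the MAP kinase phosphatase gene Dusp1, the antiproliferative gene Btg2 and Ppp1r15a, which encodes the phosphatase subunit GADD34:
Dusp1, chr17:26508588-26508635, minus strand: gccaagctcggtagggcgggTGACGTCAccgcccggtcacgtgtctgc
Btg2, chr1:134079294-134079341, minus strand: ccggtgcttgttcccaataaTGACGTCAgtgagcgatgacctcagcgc
Ppp1r15a, chr7:45526269-45526300, minus strand: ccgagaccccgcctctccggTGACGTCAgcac
A match is a description of letters and not a measured binding site.

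Over all 32851 RefSeq start windows of 250 bases, 1.47% held a CArG box, 3.9% a kB site, 1.55% the cAMP response element and 4.46% the AP-1 site TGAGTCA. Sequences matched 62 of the 91 symbols among the genes that rose at least 2-fold, giving 91 windows. Of these windows, 6 held a CArG box (6.59%), 15 a kB site (16.5%), 7 the cAMP response element (7.69%) and 4 the AP-1 site (4.4%). In the 12169 windows of tested genes the shares were 1.04%, 4.53%, 2.6% and 3.34%, in the same order. In the 720 windows of all genes that rose they were 2.08%, 7.92%, 3.89% and 3.75%. In the 251 windows of genes that fell they were 0.797%, 4.38%, 1.99% and 2.79%. Windows of a gene with several start sites overlap, and the shares carry no test. Of the 6 windows with a CArG box among the rises of at least 2-fold, 4 belonged to Egr2. Dusp5 and Zfp36 gave 1 each, so that this share rests on the 3 genes shown above. Egr1, Egr3, Ier2, Nfkbiz and Tnfsf9 had no sequence in the table used.

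Most called changes at 30 min were small, and a minority of the rises was large. Of the 708 rises, 92 were at least 2-fold (0.662% of the genes tested), 36 at least 4-fold and 13 at least 8-fold. Of the 299 falls, 9 were at least 2-fold (0.0647%), and the median called fall was -0.33 on the log2 scale against 0.28 for the median called rise. Over all genes tested the median difference was 0.003, and 66.0% of genes moved by less than 0.1. Each of the 92 rises of at least 2-fold had its 3 stimulated libraries above its 3 unstimulated ones, an outcome that their choice in the same libraries favours. Among these 92 genes the lowest stimulated library was replicate 1 for 71 genes, replicate 2 for 10 and replicate 3 for 11. Measured from the unstimulated mean, the median rise was 1.59 in replicate 1, 1.71 in replicate 2 and 1.66 in replicate 3. The library with little 18S RNA was thus not the one with the smallest rises.

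**Figure D1:**
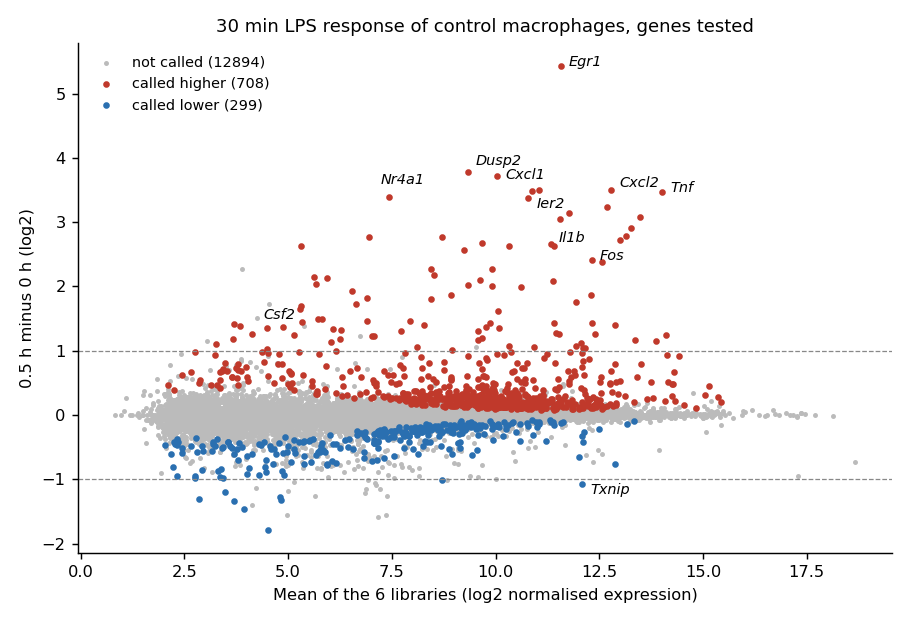
The 13901 genes tested, with the mean of the 6 libraries on the x axis (log2 normalised expression) and the difference between 0.5 h and 0 h of LPS in control macrophages on the y axis (log2). Red points are the 708 genes called higher, blue points the 299 called lower and grey points the rest, and dashed lines mark a 2-fold change. The rises reach 5.43 for Egr1, whereas among genes with high values the falls reach -1.08 for Txnip.

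The split between rises and falls changed under quantile normalisation but hardly under median centring of each library. Rises made up 70.3% of called genes. After quantile normalisation, which moved the median difference of all genes to -0.019, they made up 48.3%, with 609 rises and 652 falls. Of the main calls, 578 rises and 268 falls were also called there. Median centring of each library gave 725 rises and 291 falls, with rises at 71.4% of called genes. The number of falls was 193 without LysM 0 h replicate 1 and 190 without LysM 0.5 h replicate 2. Genes with at least a 2-fold change numbered 101, and between 101 and 108 when any of the 6 libraries was left out.

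Among the lists, which were chosen with earlier results of these data known, the immediate early regulators had the highest median. Of 21 tested members of a list of immediate early transcription factors and nuclear regulators, 17 rose, 12 of them at least 2-fold, and the median difference of the list was 2.04 against 0.003 over all genes tested. The counts of this and later lists stand beside 5.09% of all genes tested called higher and 0.662% higher by at least 2-fold. Egr1, a zinc finger transcription factor of the growth factor response, stood at 9.09, 8.72 and 8.74 in the unstimulated libraries and at 14.19, 14.33 and 14.32 after 30 min. The groups were far apart, with a difference of 5.43 ± 0.10 (SE), or 43.2-fold (adjusted p = 1.21e-19 in limma). No other gene that passed the naming rule rose as much. Its relatives Egr2 and Egr3 rose by 2.63 and 2.77. Egr2 went from 10.19, 10.13 and 9.97 to 12.59, 12.83 and 12.75 (adjusted p = 3.65e-17), and Egr3 from 5.69, 5.34 and 5.67 to 8.25, 8.4 and 8.37 (adjusted p = 2.39e-15).

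Ier2, a small nuclear protein of the immediate early class, was at 9.19, 9.09 and 9.02 before and at 12.40, 12.51 and 12.50 after LPS, a difference of 3.37 ± 0.06 (SE, adjusted p = 2.45e-20). Nr4a1, the orphan nuclear receptor Nur77, rose from 5.67, 5.82 and 5.71 to 8.88, 9.20 and 9.29, by 3.39 ± 0.12 (SE, adjusted p = 8.97e-15). Its lowest stimulated value, in replicate 1, still lay about 3 log2 units above every unstimulated value. The related receptor genes Nr4a2 and Nr4a3 were not called at 30 min, with differences of 0.01 (adjusted p = 0.975) and 0.17 (adjusted p = 0.526). Nr4a3 had a mean of 4.45 at 0 h and of 8.92 at 2 h, so that Nr4a1 and Nr4a3 differed in time. Nr4a2 stayed low, with a mean of 4.03 at 0 h and of 4.52 at 2 h.

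Among the subunits of AP-1, the dimeric factor built from Fos and Jun proteins, Fos itself stood at 11.17, 11.07 and 11.10 in unstimulated and at 13.43, 13.57 and 13.56 in stimulated libraries. The groups did not overlap, and the difference was 2.41 ± 0.09 (SE, adjusted p = 1.61e-14). Junb rose by 2.39 ± 0.06, Fosb by 2.04 ± 0.27, Jun by 1.12 ± 0.04, Atf3 by 0.59 ± 0.03 and Fosl2 by 0.40 ± 0.06, each with its SE and with adjusted p from 2.29e-17 to 0.000145. Fosb, from a low mean of 4.66, had the widest error of these genes. Fosl1 was not called (0.26, adjusted p = 0.362), and the small rise of Jund (0.19, adjusted p = 0.0278) was lost in 8 of 17 alternative analyses, with adjusted p up to 0.197. Further rises in the list were Csrnp1 (2.63), Maff (2.18), Ier3 (2.78), Myc (0.98) and Ier5 (0.69). SRF, whose gene is itself known as an immediate early gene in other cells, was not called (0.10, adjusted p = 0.156).

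**Figure D2:**
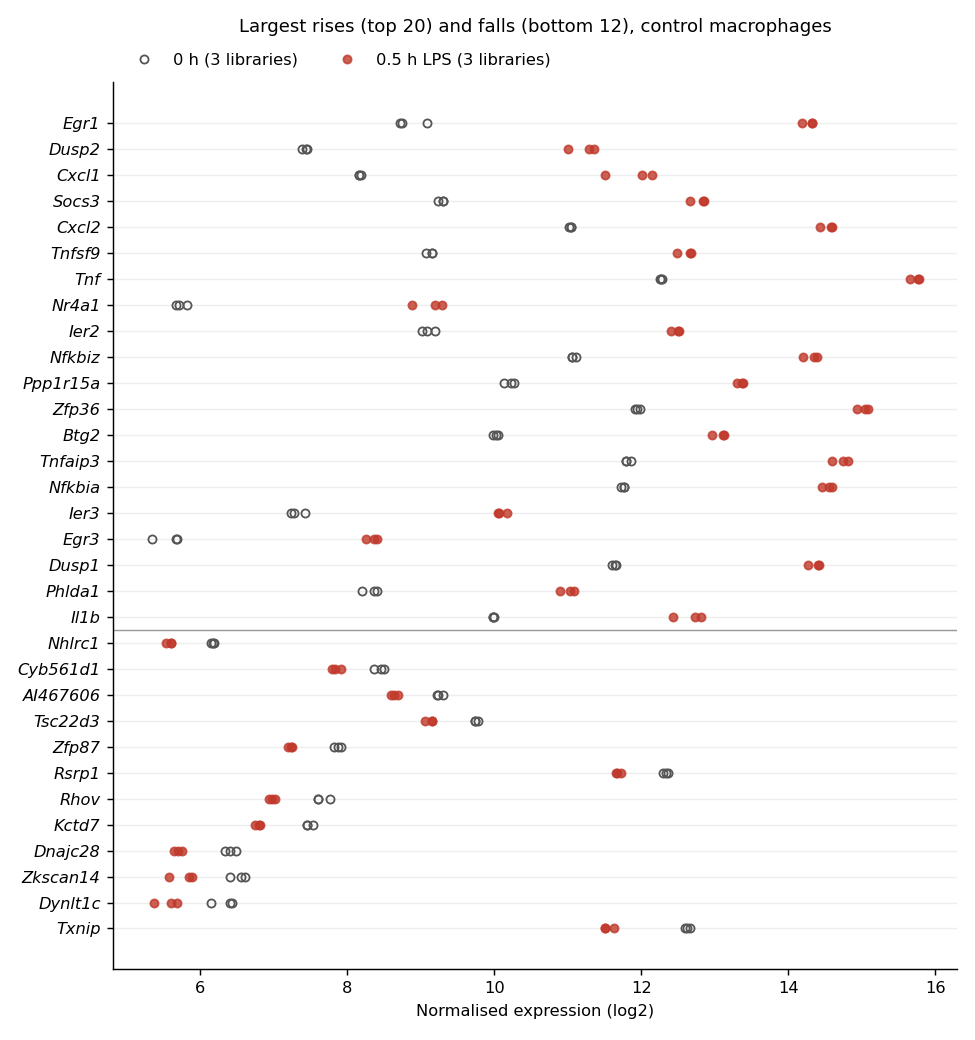
Normalised expression (log2, x axis) of the 20 largest rises and, under the grey line, the 12 largest falls, counting protein-coding genes whose mean log2 value over the 6 libraries corresponds to at least 50 on the linear scale, with 1 point per library: open circles for the 3 unstimulated and red circles for the 3 LPS-stimulated libraries of control macrophages. In every row the groups are apart, which the rule for choosing these genes required. The distance runs from 5.43 for Egr1 to 2.67 for Il1b among the rises and from -1.08 for Txnip to -0.58 for Nhlrc1 among the falls.

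Genes that switch off MAP kinases rose together with these factors, and only part of the list moved. Of 16 tested MAP kinase phosphatases and ERK feedback inhibitors, 8 rose, 6 of them at least 2-fold, and 8 were not called (median difference 0.31). Dusp2, a nuclear phosphatase of immune cells, went from 7.44, 7.46 and 7.39 to 11, 11.29 and 11.36. This rise of 3.79 ± 0.09 (SE, 13.8-fold, adjusted p = 3.56e-18) came next to that of Egr1. Dusp1, which dephosphorylates p38 and JNK, went from 11.60, 11.66 and 11.64 to 14.27, 14.4 and 14.42, by 2.73 ± 0.04 (SE, adjusted p = 1.45e-21). Dusp5, with its paired CArG boxes shown above, went from 7.98, 7.87 and 7.98 to 10.40, 10.54 and 10.62, by 2.57 ± 0.07 (SE, adjusted p = 9.7e-17).

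Errfi1, an inhibitor of the EGF receptor, rose by 2.27 (adjusted p = 1.82e-15), Dusp4 by 1.06 (adjusted p = 1.66e-11), Spry1 by 1.02 (adjusted p = 5.97e-07), Dusp8 by 0.96 (adjusted p = 1.62e-08) and Spry2 by 0.44 (adjusted p = 0.000259). Dusp6, a cytoplasmic ERK phosphatase, was not called (-0.12, adjusted p = 0.368), and neither were Dusp7, Dusp10, Dusp14, Dusp16, Spred1, Spred2 and Spred3, with differences from -0.24 to 0.17. Of 13 tested genes for ERK cascade kinases and TCF or SRF factors none was called by limma in the fit of all libraries, with differences between -0.06 and 0.10 and 1 gene at an unadjusted p below 0.05. With 5.09% of all tested genes called higher, a count of 0 in so short a list is near the overall share.

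The NF-κB genes moved by unequal amounts. Of 20 tested genes for NF-κB subunits, IκB proteins and feedback regulators, 15 rose, 5 at least 2-fold, none fell, and the median was 0.40. Nfkbiz, which encodes the nuclear inhibitor-like protein IκBζ, stood at 11.11, 11.06 and 11.06 and then at 14.20, 14.39 and 14.35. Its difference of 3.24 ± 0.04 (SE) had the smallest adjusted p among the genes named here (1.76e-22). Tnfaip3, encoding the deubiquitinating enzyme A20, rose from 11.86, 11.79 and 11.79 to 14.60, 14.81 and 14.75, by 2.91 ± 0.05 (SE, adjusted p = 1.53e-19). Nfkbia, encoding IκBα, rose from 11.77, 11.76 and 11.73 to 14.46, 14.59 and 14.56, by 2.78 ± 0.04 (SE, adjusted p = 2.81e-21).

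The IκB family member Nfkbid rose by 2.10 ± 0.05 (SE, adjusted p = 3.65e-17). Other IκB genes rose less, Nfkbib by 0.55 (adjusted p = 1.83e-09), Nfkbie by 0.43 (adjusted p = 0.000391) and Bcl3 by 0.37 (adjusted p = 0.00126). Map3k8, which encodes TPL-2, stood at 8.99 in each unstimulated library and at 10.14, 10.16 and 10.15 in the stimulated ones, a rise of 1.16 ± 0.06 (SE, adjusted p = 3.12e-12). The libraries of each group lay within 0.02 of one another for this gene. Among the subunit genes, Rel rose by 0.56 (adjusted p = 1.85e-07), Nfkb2 by 0.21 (adjusted p = 0.00628) and Rela by 0.19 (adjusted p = 0.00271), while Nfkb1 (0.07, adjusted p = 0.535) and Relb (0.18, adjusted p = 0.0528) were not called. Nfkb2 lost its call when only libraries with high 18S values were used. Relb was called higher under median centring, with a filter at 50 and without LysM 0 h replicate 1 (lowest adjusted p = 0.0121 in limma). Tnip2, at an adjusted p of 0.0489, lost its call in 11 of 17 alternatives, with adjusted p up to 0.197.

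Genes of the TLR4 pathway showed small differences. Of 22 tested genes for the receptor, co-receptors, adaptors and kinases, 4 were called, all higher, and 10 had an unadjusted p below 0.05, with a list median of 0.07. The share of all tested genes called higher was 5.09%, and the count of 1 member reached under some alternatives is near it. Cd14, the LPS co-receptor, stood at 14.01, 14 and 14 and then at 14.43, 14.46 and 14.56, a rise of 0.48 ± 0.05 (SE, adjusted p = 1.61e-06). Tlr4 had a difference of 0 (adjusted p = 0.995) and Ly96, which encodes MD-2, likewise (adjusted p = 0.999). Traf6, Traf3 and Ticam1, which encode the signalling proteins TRAF6, TRAF3 and TRIF, rose by 0.13, 0.13 and 0.12 (adjusted p = 0.019, 0.0166 and 0.0252). These small rises were lost under quantile normalisation and in libraries with high 18S values, where 1 member of the list was called higher. Quantile normalisation also called Tirap, the gene of a TLR adaptor, lower (-0.12, adjusted p = 0.0248 in limma). Again 1 member was called higher without LysM 0.5 h replicate 2 or without LysM 0.5 h replicate 3, and 2 members without LysM 0 h replicate 1.

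Cytokine genes ranged from large rises to differences too small to be called. Of 21 tested, 11 rose, 7 at least 2-fold, none fell and 10 were not called, with a median of 0.38. Of all genes tested, 5.09% were called higher and 0.662% higher by at least 2-fold. Tnf, the gene of tumour necrosis factor, was at 12.26, 12.28 and 12.27 before and at 15.66, 15.76 and 15.78 after LPS, a difference of 3.46 ± 0.06 (SE, 11-fold, adjusted p = 2.08e-20). Tnfsf9, the ligand of the costimulatory receptor 4-1BB, rose from 9.07, 9.15 and 9.16 to 12.49, 12.67 and 12.68, by 3.49 ± 0.07 (SE, adjusted p = 6.1e-19). The interleukin-1 genes Il1b and Il1a, whose ends lie 54.6 kb apart on chromosome 2, rose by 2.67 ± 0.08 (SE, adjusted p = 5.51e-16) and 1.87 ± 0.07 (SE, adjusted p = 8.62e-15). Il1b went from 9.99, 10.00 and 9.99 to 12.43, 12.82 and 12.73, with replicate 1 lowest among the stimulated libraries.

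Il10, the anti-inflammatory interleukin, rose by 1.82 (adjusted p = 3.04e-09), Clcf1 by 1.5 (adjusted p = 1.55e-10), Csf2 by 1.35 (adjusted p = 1.34e-07), Lif by 0.98 (adjusted p = 5.96e-07), Il23a by 0.79 (adjusted p = 0.000779), Osm by 0.78 (adjusted p = 1.58e-07) and Csf1 by 0.38 (adjusted p = 0.00014). Il6 was at 4.84, 4.81 and 4.83 and then at 4.98, 5.17 and 4.96 (0.21, adjusted p = 0.365), and Il12b at 6.64, 6.68 and 6.61 and then at 6.87, 6.92 and 6.64 (0.17, adjusted p = 0.494). Neither was called at 30 min, although the stimulated libraries of Il6 all lay above the unstimulated ones. Il12a, Il15, Il18, Il27, Ebi3, Il1rn, Tnfsf15 and Tgfb1 were not called either, with differences from -0.07 to 0.23.

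Among chemokines, 8 of 18 tested genes rose, 4 at least 2-fold, and 10 were not called (median 0.34). Over all genes tested, 5.09% were called higher and 0.662% higher by at least 2-fold. Cxcl1 and Cxcl2, ligands that attract neutrophils and whose genes lie 10.8 kb apart on chromosome 5, showed the largest differences. Cxcl1 went from 8.16, 8.16 and 8.19 to 11.51, 12.15 and 12.01, by 3.72 ± 0.15 (SE, adjusted p = 6.25e-14). Cxcl2 went from 11.05, 11.02 and 11.05 to 14.43, 14.60 and 14.58, by 3.50 ± 0.06 (SE, adjusted p = 1.21e-19). The spread of Cxcl1 came from replicate 1, as it did for Il1b. Ccl3 and Ccl4, neighbours on chromosome 11 at a distance of 13.2 kb, rose by 1.25 (adjusted p = 2.43e-12) and 1.04 (adjusted p = 6.57e-12). The monocyte attractants Ccl2 and Ccl7 rose by 0.98 (adjusted p = 6.38e-10) and 0.81 (adjusted p = 2.42e-06), Ccl9 by 0.29 (adjusted p = 0.000224) and Cxcl3 by 0.44 (adjusted p = 0.00403), the last of these not when the 6 libraries were fitted alone. Cxcl10 (0.46, adjusted p = 0.244), Cxcl9, Cxcl11, Ccl5 and Ccl22 were not called. When the 6 libraries were fitted alone, with or without a replicate block, Cxcl10 and Ccl12 were called higher (lowest adjusted p = 0.00223 and 0.00649 in limma). Cxcl16 was called higher in that fit without the block (adjusted p = 0.0341).

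**Figure D3:**
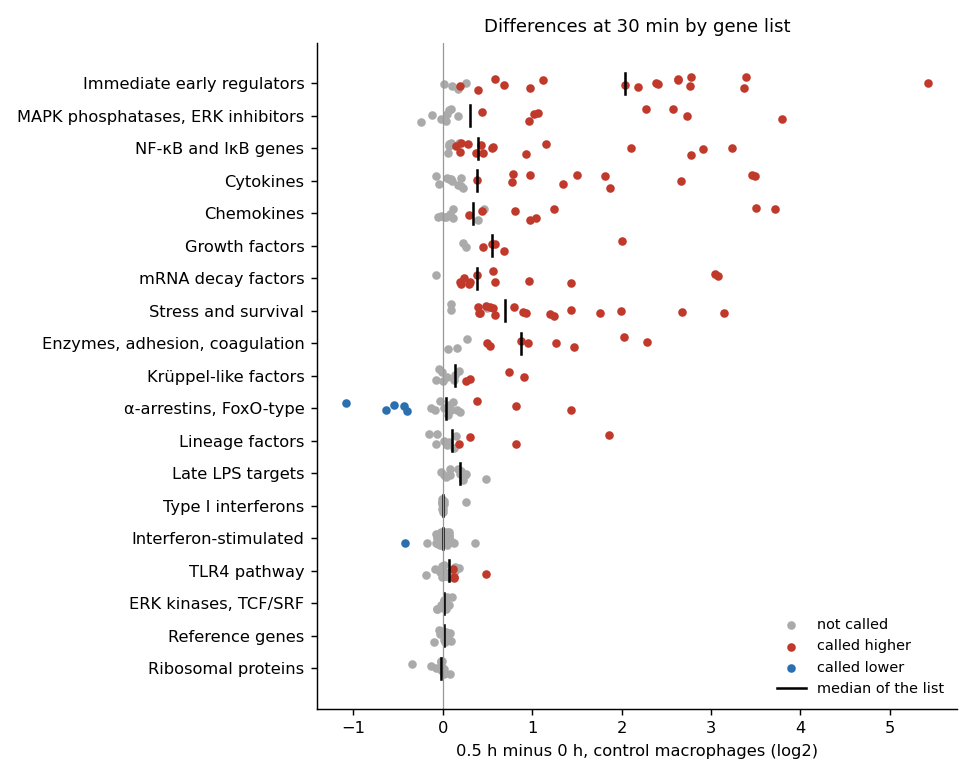
Difference between 0.5 h and 0 h of LPS in control macrophages (log2, x axis) for the tested members of 19 gene lists, 1 point per gene; red points were called higher, blue points lower and grey points were not called, and a black bar marks the median of each list. The medians run from 2.04 for the immediate early regulators down to about 0 for interferon, interferon-stimulated, reference and ribosomal protein genes.

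Genes that destabilise mRNA or arrest growth formed a further group. Of 13 tested mRNA decay factors and Btg or Tob genes, 12 rose, 3 of them at least 2-fold (median 0.38), and Btg3 was not called. Btg3 was at 5.36, 5.32 and 5.53 before and at 5.68, 5.69 and 4.60 after LPS. Its lowest value lay in replicate 3, the library low in 18S RNA. Without that library its difference was 0.28 instead of -0.08, and it was still not called. Zfp36, whose protein binds AU-rich elements of cytokine mRNAs, went from 11.99, 11.94 and 11.91 to 14.94, 15.05 and 15.09, by 3.08 ± 0.07 (SE, adjusted p = 1.14e-18). Btg2 went from 10.05, 10.03 and 9.98 to 12.96, 13.13 and 13.11, by 3.04 ± 0.06 (SE, adjusted p = 1.53e-19). Zc3h12a, encoding the endoribonuclease Regnase-1, rose by 1.44 (adjusted p = 3.95e-17) and Zfp36l1 by 0.97 (adjusted p = 3.43e-09). The Roquin genes Rc3h1 and Rc3h2 rose by 0.30 (adjusted p = 0.00876) and 0.21 (adjusted p = 0.00665), calls that were lost without LysM 0 h replicate 1 or without LysM 0.5 h replicate 2, with adjusted p up to 0.0761 and 0.0642.

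Of 20 stress, growth arrest and survival genes, 17 rose, 7 at least 2-fold (median 0.69). Ppp1r15a went from 10.23, 10.27 and 10.13 to 13.30, 13.39 and 13.37, by 3.14 ± 0.06 (SE, adjusted p = 1.53e-19). Phlda1 rose by 2.68, Gadd45b by 1.99, the kinase genes Pim1 by 1.76 and Sgk1 by 1.43, and Plk2 by 1.24, with adjusted p from 5.81e-17 to 6.42e-12. Bcl2a1b and Bcl2a1d, near-identical copies of a survival gene whose reads may be shared, rose by 0.93 and 0.90, and Bcl2a1a was not called (0.49, adjusted p = 0.162). The copies Hspa1a and Hspa1b of the inducible heat shock protein, 10.0 kb apart on chromosome 17, rose by 1.81 and 1.4 and are uncertain for the same reason. Socs3, an inhibitor of cytokine receptor signalling that was on no list, stood at 9.31, 9.31 and 9.23 and then at 12.67, 12.85 and 12.84, a rise of 3.51 ± 0.07 (SE, adjusted p = 2.91e-19).

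Among early inflammatory enzymes and adhesion or coagulation genes, 8 of 11 rose, 4 at least 2-fold (median 0.88). Ptgs2, encoding cyclooxygenase-2, rose by 2.03 (adjusted p = 1.79e-10), Kdm6b, an H3K27 demethylase gene, by 2.28 (adjusted p = 4.46e-15) and Cd83 by 1.27 (adjusted p = 2.09e-13). Of 7 secreted growth factor genes, 5 rose, with Gdf15 by 2.01 (adjusted p = 2.39e-15) and Hbegf, the heparin-binding EGF-like factor, by 0.68 (adjusted p = 1.3e-05). The rise of Areg (0.55, adjusted p = 0.0269) was lost in 8 of 17 alternatives, with adjusted p up to 0.13. Irf1, an interferon regulatory factor placed on the lineage list, rose by 1.86 ± 0.09 (SE, adjusted p = 1.95e-12), whereas Spi1 (0.02, adjusted p = 0.818) and Irf8 (0.07, adjusted p = 0.447), which maintain macrophage identity, were not called. That list had 4 of 12 members called higher and 2 without LysM 0.5 h replicate 2, beside 5.09% of all genes tested. Id3 and Id2, inhibitors of helix-loop-helix factors, rose by 2.13 (adjusted p = 3.03e-11) and 0.68 (adjusted p = 6.32e-10). Of 12 Krüppel-like factor genes 4 rose, beside the same 5.09% of all genes tested. They were Klf6 (0.91, adjusted p = 3.13e-13), Klf2 (0.74, adjusted p = 1.49e-07), Klf7 (0.31, adjusted p = 0.00177) and Klf4 (0.26, adjusted p = 0.00876). The call of Klf4 was lost without LysM 0.5 h replicate 2.

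Genes known as late targets of LPS were not called at 30 min. None of 13 tested members was called by limma on all libraries, 1 had an unadjusted p below 0.05 and 1 was called when the 6 libraries were fitted alone (median 0.19). A count of 0 among 13 genes is near the overall share of 5.09%. By the mean of the control libraries, 9 of them stood at least 1 log2 unit above the 0 h level at 1 h and all 13 at 2 h. For Il12b the means over 0, 0.5, 1 and 2 h were 6.64, 6.81, 9.62 and 12.45. Of 11 type I interferon genes tested none was called and 1 was at an unadjusted p below 0.05, again near the overall share, and the members other than Ifnb1 had means of at most 3.15 at 0 h, where little change could be seen. Ifnb1, which encodes interferon-β, went from 6.05, 6.04 and 6.14 to 6.31, 6.41 and 6.30 (0.26 ± 0.12 SE, adjusted p = 0.277).

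Among 32 interferon-stimulated genes none rose in the fit of all libraries, 2 were at an unadjusted p below 0.05 and 2 rose when the 6 libraries were fitted alone, with a list median of 0. A count of 0 is near the overall share of 5.09% here too, and 1 of the genes at an unadjusted p below 0.05 was Stat2, which fell. Isg15 (0.07, adjusted p = 0.883), Ifit1 (0.07, adjusted p = 0.889) and Mx1 (-0.01, adjusted p = 0.991) are examples, and at 2 h the mean of 15 of the 32 was at least 1 above 0 h. Stat2, a subunit of the interferon-activated factor ISGF3, fell by 0.42 ± 0.10 (SE, adjusted p = 0.0104), from 12.41, 12.32 and 12.24 to 12.01, 11.77 and 11.93. The groups did not overlap, but the call was lost without LysM 0 h replicate 1 or without LysM 0.5 h replicate 2, with adjusted p up to 0.0776. None of 12 reference genes and none of 16 ribosomal protein genes was called in limma, beside 5.09% higher and 2.15% lower over all genes tested, so that counts of 0 in lists of this length say little. At an unadjusted p below 0.05 there were 1 and 0, and quantile normalisation called Gusb, Tubb5, Rpl4 and Rpl7 lower, as did a replicate block in the 6 libraries for Tubb5.

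Falls of at least 2-fold were few, 9 among the genes tested. The largest were those of the long non-coding genes AI480526 (-1.78, adjusted p = 3.33e-07 in limma) and 4932422M17Rik (-1.46, adjusted p = 2.52e-05), both with low values. Neat1, a long non-coding gene with high values, fell by less (-0.76, adjusted p = 1.62e-06). Txnip, an α-arrestin that restrains glucose uptake and binds thioredoxin, stood at 12.66, 12.62 and 12.59 before and at 11.63, 11.51 and 11.51 after LPS. Its libraries did not overlap, and the difference was -1.08 ± 0.05 (SE, adjusted p = 2.16e-12). Tsc22d3, the glucocorticoid-induced leucine zipper gene, fell from 9.78, 9.74 and 9.74 to 9.15, 9.06 and 9.16, by 0.63 ± 0.05 on the log2 scale (adjusted p = 1.68e-08). Both belong to a list of α-arrestins and genes known as FoxO or growth-arrest targets, of whose 18 members 5 fell, 3 rose and 10 were not called (median 0.04), beside 2.15% lower and 5.09% higher over all genes tested. The other falls were Arrdc3 (-0.54, adjusted p = 4.9e-07), Arrdc2 (-0.43, adjusted p = 0.00125, not called with a replicate block in the 6 libraries, where it was 0.0515) and Pik3ip1 (-0.40, adjusted p = 0.0433), an inhibitor of PI3 kinase whose call was lost in 10 of 17 alternatives, with adjusted p up to 0.188. The rises were Cited2 (1.43), Irs2 (0.82) and Ccng2 (0.38), so the list did not move one way.

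The remaining falls named by the rule were Dynlt1c (-0.77, adjusted p = 0.000834), Zkscan14 (-0.75, adjusted p = 0.000476), Dnajc28 (-0.71, adjusted p = 5.65e-05), Kctd7 (-0.69, adjusted p = 0.000382), Rhov (-0.68, adjusted p = 2.87e-05), Rsrp1 (-0.65, adjusted p = 7.66e-07), Zfp87 (-0.64, adjusted p = 1.99e-05), AI467606 (-0.61, adjusted p = 3.33e-07), Cyb561d1 (-0.60, adjusted p = 2.02e-07) and Nhlrc1 (-0.58, adjusted p = 0.0085). Rhov went on falling, from a mean of 7.66 at 0 h and 6.98 at 0.5 h to 5 at 2 h. Rsrp1 had means of 12.33, 11.68, 11.19 and 12.18 over the 4 times and was back near its start at 2 h.

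Zinc finger genes were frequent among the falls, a class picked out after the values had been seen. Of 370 tested protein-coding genes with a numbered Zfp, Zkscan, Zscan or Zbtb symbol, 34 fell (9.19%) and 19 rose (5.14%), beside 1.85% and 5.47% of all 11932 protein-coding genes tested. Among long non-coding genes 58 of 874 were lower (6.64%) and 31 higher (3.55%), beside 2.15% and 5.09% of all genes tested. The shares of these classes carry no test. By length, the protein-coding genes that rose at least 2-fold had a median genomic span of 6.2 kb and a median of 4 exons, those that fell 11.3 kb and 5 exons, and all tested protein-coding genes 23.8 kb and 9 exons. Genes shorter than 10 kb made up 67.9% of the rises of at least 2-fold, 46.6% of the falls and 24% of all. More than 100 kb was spanned by 2 of the 221 falls (0.9%), 3.8% of the rises of at least 2-fold and 12.3% of all. Over all 653 protein-coding rises the median span was 27.7 kb.

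Non-coding genes took part in the rises as well. Mir155hg, the host gene of miR-155, a microRNA of inflammatory myeloid cells, went from 5.59, 5.53 and 5.63 to 7.40, 7.55 and 7.57. The difference was 1.92 ± 0.08 (SE, adjusted p = 2.09e-13), and its mean was 9.74 at 2 h. The mature product was not measured in these libraries and is shown for orientation, with its seed, bases 2 to 8, in capitals (RefSeq, chr16:84714143-84714165, plus strand):
mmu-miR-155-5p: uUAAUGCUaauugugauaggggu
The other genes named by the rule without a protein-coding annotation were Gm37120 (1.49, adjusted p = 6.4e-08), Gm16712 (1.46, adjusted p = 2.1e-09), Gm14636 (1.31, adjusted p = 5.85e-05) and H2-Q5 (1.24, adjusted p = 1.46e-07). H2-Q5 is annotated as a polymorphic pseudogene and Gm37120 as TEC, a provisional type, so neither is annotated as a non-coding RNA. Gm16712 overlaps Ebi3 and Ccdc94 on the opposite strand, and H2-Q5 is an MHC class I copy whose reads may be shared with H2-Q7 and H2-Q10 nearby.

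The later control libraries showed that the genes up at 30 min followed different courses. Of the 92 rises of at least 2-fold, 23 had their highest group mean at 0.5 h, whereas 44 peaked at 1 h and 25 had their highest mean in the 2 h libraries. Their choice at 0.5 h favours a maximum there, and the counts carry no test. Control replicates 2 and 3 at 1 h were low in the 18S gene (16.88 and 17.00). Whether this moved the peak times was not tested. By 2 h, the mean of 28 of the 92 was less than 1 above the 0 h mean, and that of 12 was below it. Egr1 had means of 8.85, 14.28, 11.85 and 9.63 over 0, 0.5, 1 and 2 h, and Ier2 of 9.10, 12.47, 10.57 and 9.27. Fos, with 11.11, 13.52, 11.15 and 9.52, ended below its start. By contrast Tnf had 12.27, 15.73, 16.19 and 15.60, and Il1b 10.00, 12.66, 14.88 and 14.94. Nfkbia reached 14.54 at 0.5 h and was at 14.47 at 2 h. All 3 comparisons with stimulated cells share the 0 h libraries.

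**Figure D4:**
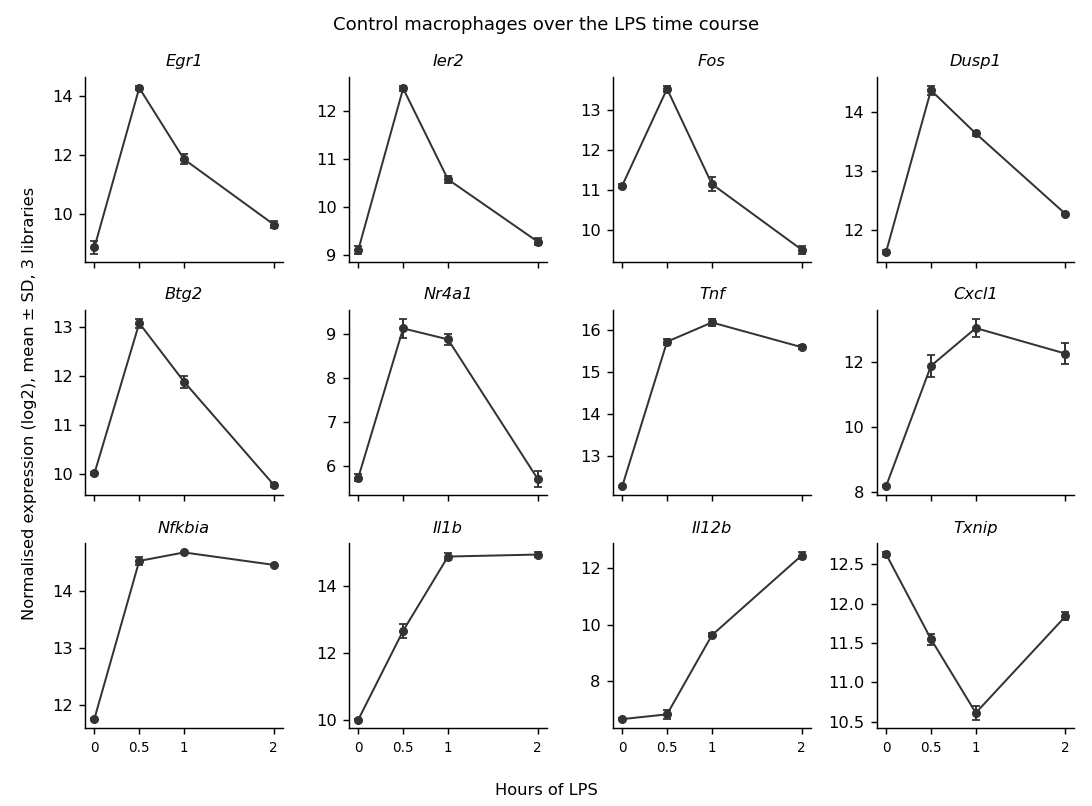
Normalised expression (log2, y axis, a separate scale per gene) of 12 genes in control macrophages at 0, 0.5, 1 and 2 h of LPS (x axis); points are means and bars the SD of 3 libraries. Egr1, Ier2, Fos, Dusp1 and Btg2 are highest at 0.5 h and lower again at 2 h, Tnf, Cxcl1 and Nfkbia stay high, Il12b rises after 0.5 h, and Txnip falls to 10.61 at 1 h and is at 11.84 at 2 h.

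The response was then set beside that of the libraries labelled FosKO. The means compared come from other libraries than those of the control comparison. Both comparisons took the spread of each gene from the same fit over 24 libraries, however, so their calls are not independent. There, 619 genes rose (4.45% of the genes tested) and 204 fell (1.47%). The rises common to both genotypes numbered 439, which is 62.0% of the control rises and 70.9% of those in FosKO. The common falls numbered 121, or 40.5% and 59.3%. No gene was called in opposite directions. Of the 92 control rises of at least 2-fold, 89 were called higher in FosKO, and their median difference was 1.64 in control and 1.39 in FosKO cells, a contrast that the choice of genes in the control libraries favours.

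The difference between the genotypes' responses was tested directly and was called for 16 genes (0.115% of the genes tested), with 905 genes at an unadjusted p below 0.05. The signed difference was lower in FosKO for 14 genes and higher for 2, of which Txnip fell by 1.08 in control and by 0.65 in FosKO cells. Fos, the targeted gene, was at 11.17, 11.07 and 11.10 in control and at 12.72, 12.41 and 12.67 in FosKO libraries before LPS, and at 13.43, 13.57 and 13.56 against 12.81, 12.64 and 12.79 after 30 min. Fos RNA was thus higher in unstimulated cells labelled FosKO than in controls and hardly moved with LPS (0.15, adjusted p = 0.396). Values for the whole gene do not show which part of it was deleted and do not check the labels, so the groups are named by their labels. The response of Fos differed by -2.26 ± 0.12 (SE, adjusted p = 1.38e-09).

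Dusp5 rose by 2.57 in control and by 1.70 in FosKO cells, a difference of -0.87 ± 0.10 (SE, adjusted p = 0.000113). Its control libraries reached 10.40 to 10.62 and the FosKO libraries 8.62 to 8.73. Before LPS the control libraries were at 7.87 to 7.98 and the FosKO libraries at 6.92 to 7.01. Dusp5 was thus lower in FosKO already at 0 h. Errfi1 (-0.91, adjusted p = 0.000113), Kdm6b (-0.92, adjusted p = 0.000176), Nr4a1 (-1.15, adjusted p = 0.00283) and Csf2 (-1.08, adjusted p = 0.0105) also responded less in FosKO. Csf2, which encodes GM-CSF, was at 5.06, 5.21 and 5.25 after LPS in control cells and at 4.24, 3.94 and 4.12 in FosKO cells, and the groups did not overlap. Ifnb1 went the other way: after LPS its FosKO libraries were at 7.75, 7.89 and 8.45 and its control libraries at 6.31, 6.41 and 6.30. Its rise was called in FosKO (1.86, adjusted p = 7.03e-10) and not in control cells, and the difference was 1.59 ± 0.18 (SE, adjusted p = 0.000113). When the 4 groups were fitted alone 6 genes were called, Nr4a1 not among them (adjusted p = 0.0835 in limma), and 26 were called under quantile normalisation. The number of genes called was 10 without LysM 0.5 h replicate 2 and 9 without LysM 0.5 h replicate 3, a library low in 18S RNA. FosKO 0.5 h replicate 1 was also low in it, with 16.65 for Rn18s-rs5, and 13 genes were called without that library. In FosKO the total of 823 calls became 542 without FosKO 0.5 h replicate 3.

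**Figure D5:**
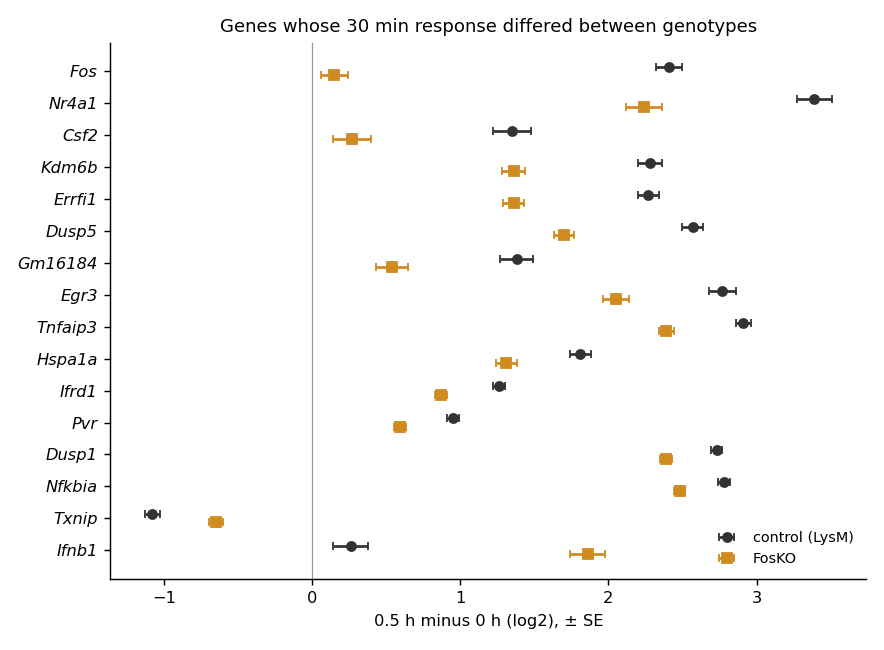
Difference between 0.5 h and 0 h of LPS (log2, x axis) for the 16 genes whose response differed between genotypes, with black circles for control and orange squares for FosKO macrophages; bars are the SE from the fit over all libraries. Control values lie to the right of FosKO values for 14 genes, from Fos (2.41 against 0.15) to Nfkbia (2.78 against 2.48), and to the left for Txnip and Ifnb1.

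Of the 92 rises of at least 2-fold, 72 had a smaller difference in FosKO than in control cells, and 13 were among the 16 genes with a called difference. These 92 genes were chosen in the control libraries that also enter the test of the difference, so the counts are descriptions. Egr1, Ier2 and Tnf are examples of large rises without a called difference. Egr1 rose by 5.43 in control and 5.58 in FosKO cells (adjusted p of the difference 0.865), Ier2 by 3.37 and 3.59 (0.684) and Tnf by 3.46 and 3.22 (0.683). A p above the threshold does not show that the responses were equal.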

How the data were processed

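TruSeq libraries were sequenced by the authors as single-end, strand-specific reads. Per the submitters' processing notes, the tools used were STAR 2.5.2a, RSEM 1.2.31 and DESeq2 1.16.1 with GRCm38. The deposited table holds log2 normalised expression per gene. The transformation is not given in the sources used here, and raw counts, depth and counting error cannot be recovered. Differences between 0.5 h and 0 h were tested with limma 3.58.1 (R 4.3.3) on these values, with 8 group means fitted over 24 libraries, a trended variance and Benjamini-Hochberg adjustment over 13901 genes. Genes with a linear value of at least 5 in 3 libraries were tested. The script was tested on simulated data. Genes were named by a rule: protein-coding genes that were called, had a mean log2 value that corresponds to at least 50 on the linear scale and had no overlap between groups gave the top 20 by rise and 12 by fall. To these were added any member of the gene lists and all genes with a called difference between genotypes. The 5 called genes without a protein-coding annotation that had the biggest change at that level were added too. Members and lists were chosen with earlier results of these data known. Gene positions came from GENCODE M21, which holds 24194 of the 24273 IDs. Alternatives covered scaling, filters, the samples fitted, the 18S set and leaving out each library. Some members of the gene lists are counted but not reported by name here.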

Additional observations from a re-analysis of the deposited data

Results flagged for a closer look

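The 16 genes whose response to 30 min of LPS differed between control cells and cells labelled FosKO in the interaction test of limma are given as the response in FosKO minus that in control cells (log2). The difference was negative for Fos (-2.26), Nr4a1 (-1.15), Csf2 (-1.08), Kdm6b (-0.92), Errfi1 (-0.91), Dusp5 (-0.87), Gm16184 (-0.85), Egr3 (-0.72), Tnfaip3 (-0.52), Hspa1a (-0.50), Ifrd1 (-0.39), Pvr (-0.36), Dusp1 (-0.33) and Nfkbia (-0.31). It was positive for Txnip (0.43) and Ifnb1 (1.59). Fos, Kdm6b, Errfi1, Dusp5 and Ifnb1 were called in all 22 alternatives run for this test. Nr4a1 and Dusp1 were called in 21, Csf2, Tnfaip3 and Ifrd1 in 20, Pvr and Txnip in 17, Egr3 in 13, Nfkbia in 10, Hspa1a in 8 and Gm16184 in 6 of 21. Gm16184 is a processed pseudogene with a low mean (3.15 at 0 h in control cells), and Hspa1a shares sequence with Hspa1b. No test of single outlying libraries was run, and with 3 libraries per group such a library is hard to tell apart.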

How the results depend on the processing

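Over 17 alternatives, none of the genes followed changed direction past the threshold. Of the 144 called genes that were followed, 16 lost their call at least once, while 28 of the 183 uncalled genes gained one. AI480526, 4932422M17Rik, Neat1 and Hspa1b were not among the genes followed. The number of falls moved from 299 to 652 under quantile normalisation, to 179 in libraries with high 18S values and to 199 with a replicate block in the 6 libraries alone, an alternative chosen after seeing the data, and lay between 190 and 244 when each library was left out. The total of 1007 ranged from 713 to 885, the rises from 523 to 641 and the changes of at least 2-fold from 101 to 108 in the same way. The genotype difference was called for 26 genes under quantile normalisation, for 9 in libraries with high 18S values, for 6 when the 4 groups were fitted alone and for 9 to 24 when each library was left out. The FosKO total of 823 ranged from 542 to 960 when each library was left out and was 1071 under quantile normalisation. The cause was not tested. Same-numbered libraries correlated in their deviations at 0.13, 0.013 and 0.048, and differently numbered ones at -0.095 to 0.027. The numbers were not taken to pair the samples, but these values do not settle whether they do. A replicate block over all libraries gave 1065 calls, with 748 rises, and 19 genotype differences. The depth of each library cannot be read from the values, which limits genes with low values.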
